A study of Mus musculus with 8 samples.

Results

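CD69+ T cells of early tolerant mice were compared with CD69+ T cells of naive mice on 2 arrays, 1 for each state. A gene was described if its signal differed at least 1.5-fold between the arrays and its probe had a detection p under 0.01 on the brighter one. Of 16593 genes named on the array, 7206 were detected in that sense, and 270 of these (3.75%) met the fold limit, 194 higher and 76 lower in early tolerant cells. The genes were then split by whether they followed markers of dendritic cells, of which H2-Ea was the guide. With 1 array a side there is no replicate, so no value below has an error or a test, and every difference is one between these arrays.

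All T cells came from spleen and lymph nodes of male C57BL/6 mice, per the labels. The early tolerant mice had received full-thickness tail skin of BDF1 donors (C57BL/6 crossed with DBA/2), under a donor specific transfusion and the anti-CD40L antibody MR-1, and their cells were taken on day 21. The naive mice were healthy and carried no graft. Cells of tolerant mice on day 100, treated like the early tolerant ones, and of rejecting mice on day 7, grafted without treatment, served to sort the genes. Cells of all 4 states spent 20 to 21 hours in culture with bone marrow-derived dendritic cells of the donor strain and were then sorted by CD69, so the naive cells had met the same stimulator cells. The CD69- cells of each culture gave a further array, which made 8 in all. How many mice stand behind an array is not stated in these sources, and cells cultured without the stimulators were not among the 8.

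CD69 is a surface protein that T cells display soon after their antigen receptor is engaged. Dendritic cells display antigen on MHC class II molecules, which are pairs of alpha and beta chains held by the invariant chain Cd74 until a peptide is loaded. The C57BL/6 haplotype carries a deletion that silences the class II alpha chain gene H2-Ea, whereas the DBA/2 haplotype carries an intact copy. Class II promoters share a set of boxes, among them the Y box, which the factor NF-Y binds. Genes induced by interferons often hold an interferon-stimulated response element, which STAT and IRF factors bind.

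Promoters of class II genes that were higher and of interferon response genes that were lower are shown, from the RefSeq tables of build GRCm38.p6. The search covered the 250 bases before each start site on both strands, and the capitals mark the motif. The Y box core TGATTGG was found in 8.38% of all 27025 genes with a promoter in the tables. Among genes of the sets defined below that matched a promoter, it was in 7.23% of higher genes that followed the markers. It was in 13.2% of higher genes that did not follow and in 12.7% of lower genes. Of the 5 class II genes that were higher in early tolerant cells, 2 matched a promoter, and both held the core, H2-Aa at chr17:34287827-34287913 on the minus strand and H2-Eb1 at chr17:34305766-34305852 on the plus strand.
H2-Aa: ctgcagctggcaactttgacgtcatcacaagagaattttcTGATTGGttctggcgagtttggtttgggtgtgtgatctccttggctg
H2-Eb1: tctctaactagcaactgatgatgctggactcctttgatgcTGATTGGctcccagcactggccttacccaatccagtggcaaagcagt

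The core of the interferon element, GAAA followed by any 2 bases and GAAA again, was found in 3.46% of the same 27025 genes. Among genes of the sets that matched a promoter, it was in 7.23% of higher genes that followed. It was in 1.47% of higher genes that did not follow and in 15.9% of lower genes. Of the 8 genes of an interferon response list that were lower in early tolerant cells, all 8 matched a promoter and 4 held the core. These were Ifit3 at chr19:34583333-34583456 and Gbp2 at chr3:142620564-142620653 on the plus strand, and Isg15 at chr4:156200835-156200936 and Irgm1 at chr11:48871421-48871490 on the minus strand. The capitals in Ifit3 and Gbp2 are the core read on the opposite strand, and in Isg15 and Irgm1 they are overlapping matches. Gbp2 and Irgm1 were chosen for this after their values were seen.
Ifit3: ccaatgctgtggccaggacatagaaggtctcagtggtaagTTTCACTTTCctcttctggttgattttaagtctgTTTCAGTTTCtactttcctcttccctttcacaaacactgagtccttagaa
Isg15: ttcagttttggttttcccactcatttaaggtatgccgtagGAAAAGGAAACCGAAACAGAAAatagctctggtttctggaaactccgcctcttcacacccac
Gbp2: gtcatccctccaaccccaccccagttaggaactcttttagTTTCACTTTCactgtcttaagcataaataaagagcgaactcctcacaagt
Irgm1: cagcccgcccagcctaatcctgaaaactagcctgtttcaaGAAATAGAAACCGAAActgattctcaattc

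The early tolerant CD69+ array detected 10308 probes (40.1%) and the naive CD69+ array 9955 (38.7%), within the 9593 to 10308 of the 8 arrays. The mean signal before normalization was 816 on the early tolerant and 1038 on the naive CD69+ array, and after quantile normalization every array had a median of 113. All signals below are normalized intensities, and signals of different genes are not set against each other. Since no background was subtracted, folds of dim genes are smaller than those of background-corrected values. Where a gene was not detected on the dimmer array, its fold is given as "at least", against the lowest detected signal of that array. Of the 270 genes, 50 higher and 7 lower ones were of this kind, and the bound was under 1.5 for 35 and 5 of them. T cell identity was measured by Cd3d, a chain of the antigen receptor complex, at 15088 in early tolerant and 12437 in naive CD69+ cells. The direction of Cd3d turned with median scaling, where its log2 difference was -0.10. Cd69 itself had 5589.5 in early tolerant and 7622 in naive CD69+ cells, against 1982 and 3083 in the CD69- cells of the same states. The Cd8a probe was not detected on any array, while Cd8b1, the other CD8 chain, was detected on all 8, with 13416 in early tolerant and 14814 in naive CD69+ cells and 49231 and 48629 in CD69- cells.

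Of the 7206 detected genes, 2.69% were at least 1.5-fold higher and 1.05% at least 1.5-fold lower in early tolerant CD69+ cells. The split depended on the scaling. With each array scaled to a common median in place of quantile normalization, 102 genes were higher and 650 lower. The median log2 difference over all genes was then -0.27 instead of -0.002. Of the 270 genes, 177 were among these 752, and none turned its direction.

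**Figure D1:**
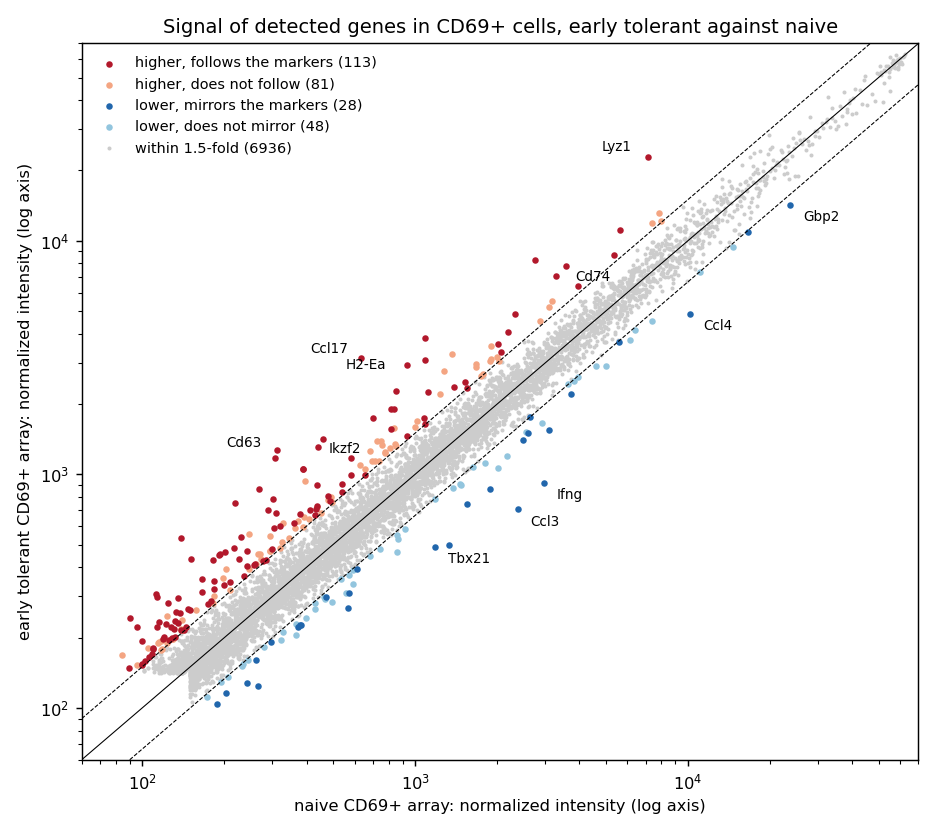
Each point is 1 of the 7206 detected genes, by its normalized intensity on the early tolerant CD69+ array (vertical, log axis) and on the naive CD69+ array (horizontal, log axis); the solid line marks equal signals and the dashed lines a 1.5-fold difference. The 194 genes above the upper line reach 4.95-fold at Ccl17, and the 76 below the lower line reach 3.37-fold at Ccl3.

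A higher gene was said to follow the dendritic cell markers if it was also at least 1.5-fold higher on the tolerant than on the rejecting CD69+ array, which are a pair of arrays that did not choose the genes. H2-Ea was the guide because it is silent in C57BL/6 cells and can be read only from donor cells. This pair was used because earlier results of these data placed it furthest apart in H2-Ea. H2-Ea had 4738 in tolerant and 187 in rejecting CD69+ cells, a 25.3-fold difference, so H2-Ea itself followed by construction. Of the 194 higher genes, 113 followed (58.2%), against 5.55% of all detected genes. On the rejecting CD69+ array 50 of the 113 were not detected (44.2%), against 7.02% of all detected genes. This rule used the signals as measured, without a bound, so some of the 113 rest on rejecting signals near background. Of the other 81 higher genes, 16 were at least 1.5-fold lower in tolerant than in rejecting cells (19.8%), against 4.34% of all detected genes. Of the 76 lower genes, 28 mirrored the markers by being at least 1.5-fold lower in tolerant than in rejecting cells (36.8%), against 4.34% of all detected genes. The full order of H2-Ea over the CD69+ arrays (tolerant, early tolerant, naive, rejecting), part of which these rules fix, was shared by 75 of the 113, against 6.77% of all detected genes. Its mirror image was shared by 10 of the 28, against 4.79%. The larger folds lay among the genes that followed. Their median fold was 1.85, and 43 of 113 reached 2-fold. Among the 81 higher genes that did not follow, the median was 1.62 and 6 reached 2-fold. These medians and counts use the folds as measured, without bounds. By its bound a gene can fall short of 2-fold, as Pf4 (1.63) and Il5 (1.88) did among the 43, and Tff1 (1.67) and Ppbp (1.13) among the 6.

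**Figure D2:**
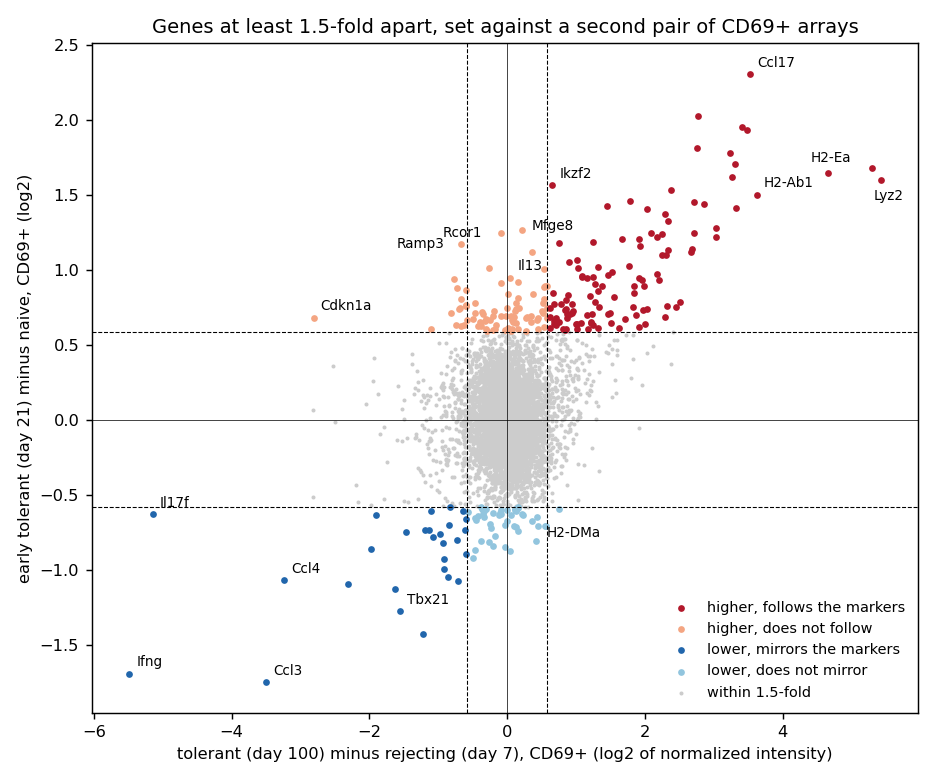
Each point is a detected gene, by its log2 difference between early tolerant and naive CD69+ cells (vertical) and between tolerant and rejecting CD69+ cells (horizontal); the dashed lines mark 1.5-fold and the colours the 4 sets. The 113 genes at the upper right follow the markers up to H2-Ea and Lyz2, the 81 above the centre do not follow, and Ifng and Ccl3 lie at the lower left among the 28 that mirror.

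All 4 class II chains described here were higher in early tolerant CD69+ cells and followed. H2-Ea, of which the donor strain carries an intact copy, had 2924 in early tolerant and 936 in naive CD69+ cells, 3.12-fold higher. H2-Ab1, the beta chain of the other class II molecule, had 3080.2 in early tolerant and 1088 in naive cells (2.83-fold), and its alpha chain H2-Aa had 1058 and 387.5 (2.73-fold). H2-Eb1, the partner chain of H2-Ea, had 2271 in early tolerant and 854 in naive cells (2.66-fold). The 4 folds lay between 2.66 and 3.12, and each chain was brighter still on the tolerant array, at 4738 for H2-Ea, 4049.9 for H2-Ab1, 1254 for H2-Aa and 3208 for H2-Eb1. Cd74, the invariant chain, had 7784 in early tolerant and 3581 in naive cells (2.17-fold). Of 13 detected genes of the class II list, 5 were higher and 1 lower, with a median log2 difference of 0.46. The lower one was H2-DMa, a chaperone of peptide loading, named after its value was seen, with 4515 in early tolerant and 7388 in naive cells. H2-DMa also had 6314 in tolerant and 4644 in rejecting cells, so it neither moved with the chains nor mirrored them. Ciita, the master activator of class II genes, had 154.5 in early tolerant cells and was not detected in naive cells (at least 1.04-fold).

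Of the genes of mature dendritic cells, some followed as well. Fscn1, the actin bundler of their dendrites, had 1749 in early tolerant and 698 in naive CD69+ cells (2.50-fold). Il4i1, which encodes a secreted oxidase of amino acids, had 3827 in early tolerant and 1091 in naive cells (3.51-fold). The apolipoprotein L gene Apol7c had 1412 in early tolerant and 459 in naive cells (3.07-fold). Ebi3, a subunit that dendritic cells and regulatory T cells use for interleukins 27 and 35, had 1903 in early tolerant and 837 in naive cells (2.27-fold). The costimulatory ligand genes were closer together. Cd86 had 1461 in early tolerant and 935 in naive cells (1.56-fold), while Cd80 had 617 and 426 and Cd40 had 1239 and 911, both within 1.5-fold. Of 23 detected genes of the maturation list, 6 were higher and none lower, with a median of 0.41, or 0.27 with undetected genes at their bounds. Of 11 detected genes of the dendritic cell identity list, 5 were higher and 1 lower, with a median of 0.48. Its higher genes included Alox5ap of leukotriene synthesis, with 456 in early tolerant and 193 in naive cells, and the Fc receptor chain Fcer1g, with 683.5 in early tolerant and 310.2 in naive cells. The lower one was Irf8, a transcription factor of both dendritic cells and activated T cells, with 1555 in early tolerant and 3099 in naive cells. Itgax, which encodes the dendritic cell integrin CD11c, was not detected on any of the 8 arrays.

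Chemokines of antigen-presenting cells held the largest difference of all. Ccl17, which attracts cells with the receptor Ccr4, had 3135 in early tolerant and 634 in naive CD69+ cells (4.95-fold). It stood at 2019 in tolerant cells, so unlike H2-Ea it was brighter on day 21 than on day 100, and at 175 in rejecting cells. Ccl9 had 1171 in early tolerant and 306.6 in naive cells (3.82-fold), and Cxcl16, a membrane-bound chemokine, had 781 and 302.4 (2.58-fold). Pf4, a platelet and myeloid chemokine, was at least 1.63-fold higher, and Ccl22, the other ligand of Ccr4, at least 1.35-fold. Of 8 detected genes of the list, 6 were higher and followed, and 1, the interferon-induced Cxcl9, was lower. Their median log2 difference was 1.05, or 0.57 with bounds.

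Macrophage and other myeloid genes made up the longest list among those that followed. Of 29 detected genes, 18 were higher and none lower, with a median log2 difference of 0.71, or 0.57 with bounds, against -0.002 over all genes. Cd63, a tetraspanin of lysosomes, had 1266 in early tolerant and 312 in naive CD69+ cells (4.06-fold). Clec4n, the fungal receptor Dectin-2, had 869 in early tolerant and 267 in naive cells (3.26-fold). Both lysozyme genes, which encode an enzyme that digests bacterial walls, followed. Lyz2 had 8305 in early tolerant and 2748 in naive cells (3.02-fold), and 16211 in tolerant against 377 in rejecting cells. Lyz1 had 22912 in early tolerant and 7169 in naive cells (3.20-fold). The sequences of Lyz1 and Lyz2 are nearly the same, so their probes may share signal. With the mean of all their probes the log2 differences were 0.63 and 0.92 in place of 1.68 and 1.60. That mean takes in probes not detected on the brighter array, among them both other Lyz1 probes. The other detected Lyz2 probe had 1558 in early tolerant and 608 in naive cells (2.56-fold). Some others on this list, named after their values were seen, were the complement gene C1qb, with 537 in early tolerant and 231 in naive cells, the galectin Lgals3, with 4850.0 and 2324, and the endotoxin coreceptor Cd14, at least 1.48-fold higher. Outside the lists, the ribonuclease gene Rnase2a was at least 3.60-fold higher, and the class I-like gene H2-M2 had 751 in early tolerant and 219.5 in naive cells (3.42-fold).

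A further 7 genes that followed were chosen for naming after their values were seen and stand for no group. The lysosomal protease gene Ctsh had 1052 in early tolerant and 389 in naive CD69+ cells (2.70-fold), and Psap, a lysosomal cofactor of lipid breakdown, had 6433 and 3965 (1.62-fold). Lpl, a lipase of blood lipoproteins, had 704 in early tolerant and 289.5 in naive cells (2.43-fold). It had 906 in tolerant cells and was not detected in rejecting cells. The chemoattractant receptor gene Fpr2 had 706 in early tolerant and 410.2 in naive cells (1.72-fold), and the bacterial lipoprotein receptor gene Tlr2 had 432 and 284.5 (1.52-fold). Cd83, a maturation marker that activated T cells express too, had 4067 in early tolerant and 2192 in naive cells (1.86-fold). Axl, a receptor for proteins bound to dying cells, had 1751 in early tolerant and 1076 in naive cells (1.63-fold). Each of these 7 was brighter in tolerant than in rejecting CD69+ cells, as the rule requires, and the tolerant signal exceeded the early tolerant one in each.

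Many of the genes above are themselves markers of dendritic or myeloid cells, so the sums of these markers restate them in part and are no separate evidence. Of 17 dendritic cell markers, 16 were detected in early tolerant and 13 in naive CD69+ cells, and their summed signal was 38141 in early tolerant and 17111 in naive cells, 2.23-fold higher. The sums were 45626 in tolerant and 10323 in rejecting CD69+ cells, and 7712 in early tolerant and 6953 in naive CD69- cells. Of the 4 myeloid markers on the array, 3 were detected in early tolerant and 1, Lyz2, in naive CD69+ cells, and their sum was 2.87-fold higher, with 8812 in early tolerant and 3073 in naive cells, of which Lyz2 made up 8305 and 2748. The ratio of the early tolerant to the naive sum was 1.08 for 6 T cell markers, 1.12 for 3 B cell markers, 0.769 for NK cell and 0.947 for granulocyte markers, and no erythroid marker was detected in either. The B cell markers Ms4a1 and Cd79a and the NK cell marker Ncr1 were not detected in either. The part of these cells in the results was not tested. In bulk samples a larger number of cells of a type cannot be told apart from more RNA per cell.

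**Figure D3:**
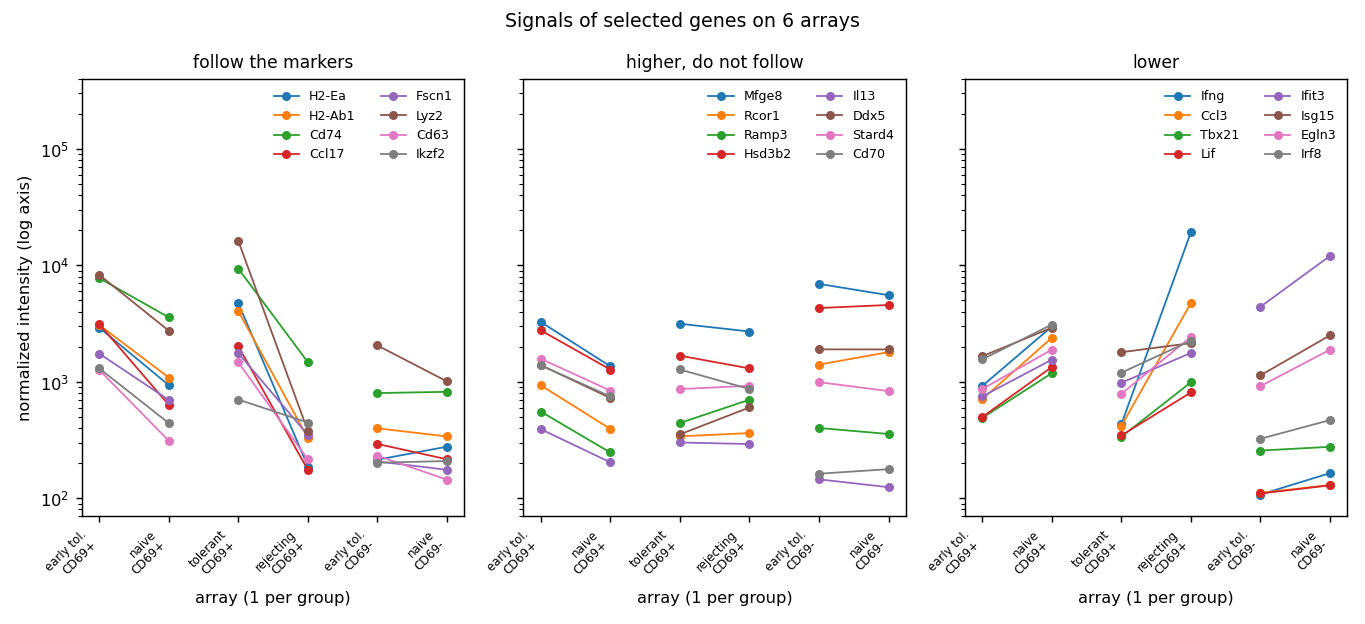
Normalized intensity (vertical, log axis) of 8 genes in each of 3 sets on 6 arrays, 1 point per array; lines join the 2 arrays of a pair. Genes that follow (left) are higher in early tolerant than naive and in tolerant than rejecting CD69+ cells, and mostly level between the CD69- arrays. In the middle panel any fall from tolerant to rejecting cells is under 1.5-fold, by the rule of that set. In the right panel Ifng reaches 19248 in rejecting CD69+ cells.

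Ikzf2 met the rule for following but had another profile than H2-Ea. It encodes Helios, a transcription factor of regulatory T cells. It had 1305 in early tolerant and 442 in naive CD69+ cells (2.96-fold), with 703.5 in tolerant and 447 in rejecting cells. The early tolerant array therefore stood above the other 3 CD69+ arrays, and the tolerant to rejecting fold was 1.58, close to the limit. Ikzf2 was not alone in this order. The early tolerant signal exceeded the tolerant one in 20 of the 113 genes that followed (17.7%), Ccl17 among them. The share over all detected genes was 48%. In CD69- cells Ikzf2 had 202 in early tolerant and 209 in naive cells. Foxp3, the lineage factor of regulatory T cells, had 4368 in early tolerant and 3659 in naive CD69+ cells, a log2 difference of 0.26 that became -0.11 with median scaling. Ctla4 had 1629 in early tolerant and 1876 in naive cells. Of 20 detected genes of the regulatory T cell list, 2 were higher, Ikzf2 and the receptor gene Klrg1, and 2 were lower, Lag3 and Il10. The list's median was 0.20, and -0.13 with median scaling, which is above the -0.27 of all genes there.

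The 81 higher genes that did not follow had smaller differences and were spread thinly over the lists. Mfge8, a secreted protein that binds dying cells, led them, with 3272 in early tolerant and 1360.2 in naive CD69+ cells (2.40-fold). It had 3155 in tolerant and 2704 in rejecting cells, and was brighter in CD69- cells, at 6934 in early tolerant and 5549 in naive cells. Rcor1, a corepressor of transcription, had 935 in early tolerant and 394 in naive CD69+ cells (2.37-fold), with 339.9 in tolerant and 363 in rejecting cells. Ramp3, a partner of peptide hormone receptors, had 555 in early tolerant and 247 in naive cells (2.25-fold), but more in rejecting cells, at 702, than in tolerant ones, at 442. Rcor1 was thus high on the early tolerant array alone among the CD69+ arrays, and Ramp3 was lowest on the naive one.

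Hsd3b2, of steroid synthesis, had 2771 in early tolerant and 1275 in naive CD69+ cells (2.17-fold). Its family holds near-identical copies. The mean of its probes gave a log2 difference of 0.19 in place of 1.12, but none of the other Hsd3b2 probes was detected on the brighter array. Ddx5, an RNA helicase, had 1392 in early tolerant and 726 in naive cells (1.92-fold), but 353.5 in tolerant and 601.5 in rejecting cells. Stard4, a cholesterol carrier, had 1579.9 in early tolerant and 840.4 in naive cells (1.88-fold), and Evi2a had 621 and 328 (1.89-fold). The trefoil gene Tff1 was at least 1.67-fold higher and the platelet chemokine Ppbp at least 1.13-fold, so the dimmest of these 10 rest on signals near background.

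The 16 higher genes that were lower in tolerant than in rejecting cells went furthest against the markers. Of them, 1, Cdkn1a, is on a list, and those named here beside Ddx5 were picked after their values were seen. Hnrnpa2b1, a splicing factor, had 13126 in early tolerant and 7849 in naive CD69+ cells (1.67-fold), against 4559 in tolerant and 7291 in rejecting cells. A dimmer probe of Hnrnpa2b1 was level, at 204.1 in early tolerant and 205.0 in naive cells. Srp54a, a subunit of the particle that guides secreted proteins, had 1135 in early tolerant and 736 in naive cells, against 387 in tolerant and 613 in rejecting cells. The mitochondrial protease gene Yme1l1 had 632 in early tolerant and 373 in naive cells, against 203.5 in tolerant and 309 in rejecting cells, and another detected probe of it was nearly level, at 272.4 in early tolerant and 251.9 in naive cells. By the brighter probes of Ddx5, Hnrnpa2b1, Srp54a and Yme1l1 the early tolerant array was thus the brightest of the 4 CD69+ arrays and the tolerant array the dimmest. Others of the 16 had another order: Ramp3, Cdkn1a, Cpne2, Cnr2 and Dapp1 were brightest in rejecting and dimmest in naive CD69+ cells. Cd70, a costimulatory ligand gene outside the 16, also lacked the order of Ddx5. It had 1387.5 in early tolerant and 749 in naive cells (1.85-fold), with 1276 in tolerant and 867 in rejecting cells.

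The type 2 cytokine genes Il13 and Il5 were among the higher ones. Il13, which did not follow, had 392 in early tolerant and 203.5 in naive CD69+ cells (1.93-fold), and Il5, which followed, had 280.4 and was at least 1.88-fold higher. Il4, named after its value was seen, was not among them, with a log2 difference of 0.03. Of 11 detected genes of the Th2, Th17 and follicular helper list, 5 were higher, 3 of which followed, and 3 were lower. The list's median log2 difference was 0.30. The lower ones were the cytokine genes Il21, Il10 and Il17f, which mirrored the markers: Il17f had 394 in early tolerant and 610.5 in naive cells, against 240.1 in tolerant and 8491 in rejecting cells. Il21 was at least 1.72-fold lower in early tolerant cells and Il10 at least 1.33-fold. Beside the cytokines, 2 genes named after their values were seen were higher and followed. The receptor gene Ccr6 had 3353.5 in early tolerant and 2061.9 in naive cells, and the transcription factor gene Rora had 992.6 and 581.0.

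Cell cycle genes were mostly within the limit. Of 24 detected, 2 were higher, the mitotic kinase Plk1, with 1698 in early tolerant and 1016 in naive CD69+ cells, and the replication gene Mcm7, with 2625 and 1746, and 1 was lower, Ccne1, with 356.5 and 535. The list's median was 0.13, and -0.18 with median scaling. Cdkn1a, the cell cycle inhibitor p21, had 1141 in early tolerant and 712 in naive cells (1.60-fold), far below its 5916 in rejecting cells. Other detected probes of Cdkn1a were 1.25-fold and 1.34-fold higher in early tolerant than in naive cells.

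The lower genes were led by Th1 cytokines and chemokines. Ifng, which encodes interferon gamma, had 919.5 in early tolerant and 2975 in naive CD69+ cells, 3.24-fold lower. It had 430.3 in tolerant and 19248 in rejecting cells, so the early tolerant cells lay between the tolerant and naive ones. Ccl3 had 708 in early tolerant and 2382 in naive cells (3.37-fold lower), and Ccl4, a related inflammatory chemokine, had 4863 and 10198 (2.10-fold lower). Tbx21, the Th1 transcription factor T-bet, had 488.5 in early tolerant and 1185 in naive cells (2.43-fold lower). Lif, a cytokine of the interleukin 6 family, had 497 in early tolerant and 1337 in naive cells (2.69-fold lower), and its naive signal also exceeded the 810 of rejecting cells. Il12rb2, a chain of the interleukin 12 receptor, was at least 1.88-fold lower in early tolerant cells. Of 23 detected genes of the Th1 and inflammatory cytokine list, 10 were lower, 7 of them mirroring the markers, and 1 was higher. The higher one was Ccl5, named after its value was seen, with 7035 in early tolerant and 3290.5 in naive cells, and it followed the markers. The other lower genes of the list, named after their values were seen, were the cytokine genes Lta, with 3758 in early tolerant and 6115 in naive cells, Osm, with 2607 and 3953, Il3, with 552 and 862, and Il24, with 223 and 371. The list's median was -0.21, and -0.60 with median scaling against -0.27 for all genes.

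Early activation genes were lower in 2 of 20 detected cases and higher in none. Irf4, induced by antigen receptor signals, had 1505 in early tolerant and 2589 in naive CD69+ cells (1.72-fold lower), and Myc had 899.7 and 1471 (1.64-fold lower). The list's median was -0.13, and that of the 12 detected pan-T genes, none of which passed the limit, was 0.02. Both lay lower with median scaling, at -0.48 and -0.29.

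Of 29 detected interferon response genes, 8 passed the limit as lower in CD69+ cells and 10 in CD69- cells, so most passed it in neither fraction. In CD69+ cells 1, Ifitm3, named after its value was seen, was higher. Of the 29, 26 lay below 0, with a median log2 difference of -0.31. Ifit3, an antiviral gene whose promoter is shown above, had 748 in early tolerant and 1548 in naive CD69+ cells (2.07-fold lower). In CD69- cells Ifit3 was brighter and further apart, with 4414.5 in early tolerant and 12074 in naive cells (2.73-fold lower). Other detected probes of Ifit3 were only 1.23-fold and 1.25-fold lower in early tolerant CD69+ cells. Isg15, a ubiquitin-like protein, had 1656 in early tolerant and 2911 in naive CD69+ cells, and 1136 and 2508.5 in CD69- cells. Oasl2 had 466.5 in early tolerant and 855 in naive CD69+ cells, and 1692 and 4587 in CD69- cells. Ubd, a ubiquitin-like gene induced by interferon gamma, had 269 in early tolerant and 567 in naive CD69+ cells, and was not detected in CD69- cells of these states. Gbp5, a GTPase outside the list, had 1061 in early tolerant and 2009 in naive CD69+ cells. Gbp2 had 14256 in early tolerant and 23772 in naive CD69+ cells, but a dimmer probe of the gene went the other way, with 1892 and 1435. The list's median in CD69- cells was -0.40.

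Of 20 detected genes of glycolysis and the hypoxia response, 5 passed the limit as lower and none as higher in early tolerant CD69+ cells, and 19 lay below 0 with a median of -0.34. Egln3, a prolyl hydroxylase that senses oxygen, had 864 in early tolerant and 1887 in naive CD69+ cells (2.18-fold lower), and 918 and 1889 in CD69- cells. Pfkp, a phosphofructokinase, had 3675 in early tolerant and 5611 in naive CD69+ cells, and 6483.5 and 12203 in CD69- cells. Another detected probe of Pfkp was 1.15-fold lower in early tolerant CD69+ cells. Hk1, a hexokinase, had 310.5 in early tolerant and 559.8 in naive CD69+ cells. The growth factor gene Vegfa had 210.4 in early tolerant and 327 in naive CD69+ cells. The list's median in CD69- cells was -0.50, with 7 genes at least 1.5-fold lower. In CD69- cells the dendritic cell marker sum, given above, was 1.11-fold higher in early tolerant than in naive cells, with Cst3 at 3910 and 3416.5 of it. The myeloid marker sum was 1.815-fold higher there, with 2349 in early tolerant and 1294 in naive cells. Any relation of these sums to the list was not tested.

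**Figure D4:**
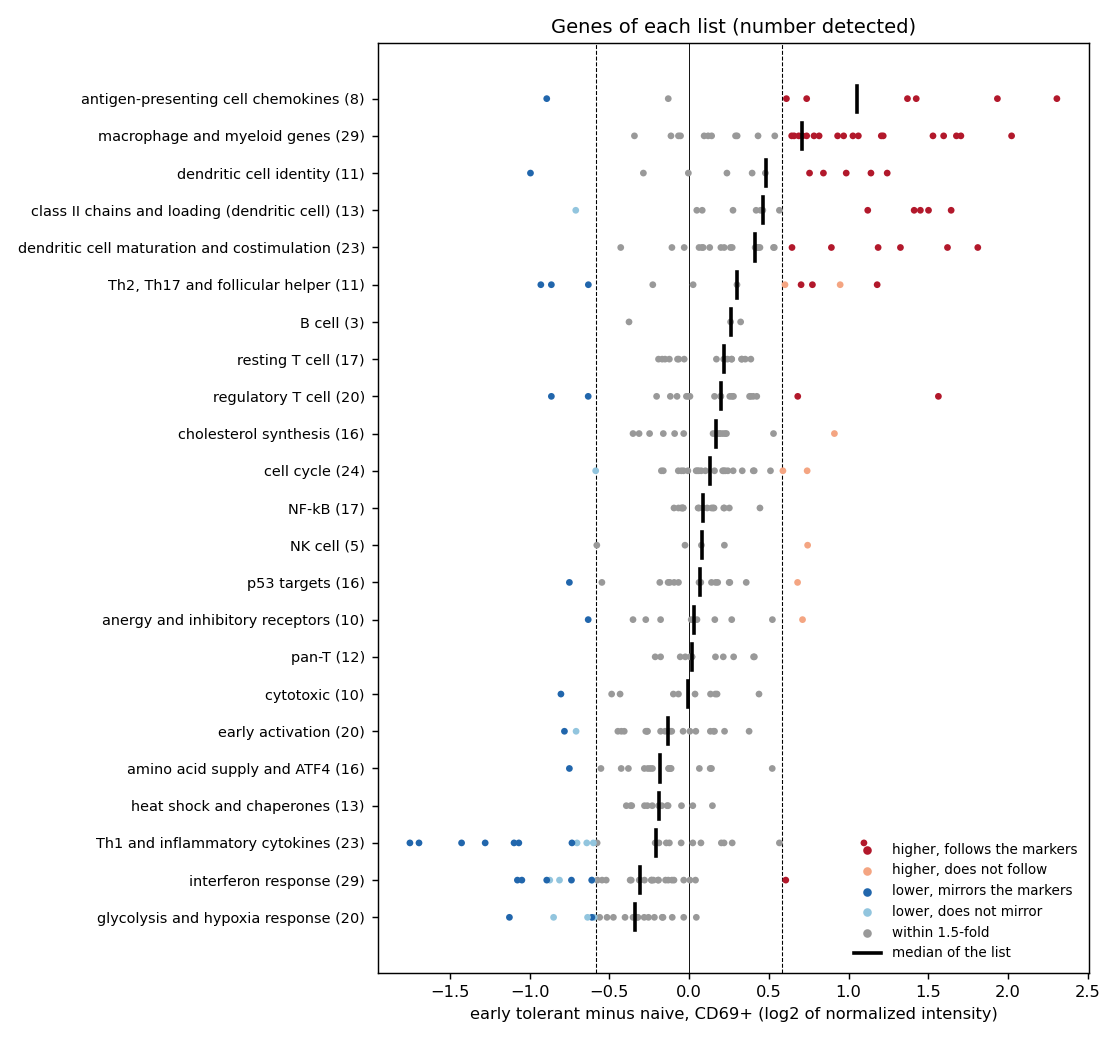
Log2 difference between early tolerant and naive CD69+ cells (horizontal) of each detected gene of the lists with at least 3 such genes; the number detected is in parentheses, colours give the sets, the black bar is the list's median and dashed lines mark 1.5-fold. Antigen-presenting cell chemokines (median 1.05, or 0.57 with bounds) and myeloid genes (0.71, or 0.57) lie to the right, and glycolysis (-0.34) and interferon genes (-0.31) to the left.

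The lower genes that did not mirror the markers had a median fold of 1.56, and none of the 48 reached 2-fold. Besides the interferon and glycolysis genes, St6galnac4, a sialyltransferase, had 1192 in early tolerant and 2176 in naive CD69+ cells (1.82-fold lower). The crystallin gene Cryba4 had 205 in early tolerant and 367 in naive cells. Bms1, of ribosome assembly, had 339.3 and 594, and the mitochondrial kinase gene Ak4 had 282.8 and 495. The last 3 had no shared list.

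The other lists held few genes past the limit. None of 17 resting T cell genes, 17 NF-kB genes or 13 heat shock genes was called, nor any of the 3 B cell, 2 granulocyte, 2 CD4 and 2 CD8 genes detected. In the p53 list, Cdkn1a was higher and Sesn2 lower among 16 genes. Stard4 was the 1 higher gene of 16 of cholesterol synthesis, Sesn2 the 1 lower gene of 16 of amino acid supply, and Gzmk, at least 1.43-fold lower, the 1 lower gene of 10 cytotoxic ones. Of 10 anergy and inhibitory receptor genes, Cd160 was higher, with 1138.5 in early tolerant and 695.5 in naive cells, and Lag3 was lower, with 191 and 297. Klrb1c was the 1 higher gene of 5 NK cell genes, at least 1.28-fold.

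The CD69- arrays, which did not choose the genes, differed less. Of the 194 higher genes, 10 were also at least 1.5-fold higher in early tolerant than in naive CD69- cells (5.15%), against 0.43% of all detected genes. Of the 76 lower genes, 16 were also at least 1.5-fold lower there (21.1%), against 0.874%. Among the 10 were Lyz2, with 2052 in early tolerant and 1006 in naive CD69- cells, Il4i1, with 548 and 309, and Ccl9, with 302 and 176. The chemokine receptor gene Ccr6 was another, named after its value was seen, with 418 in early tolerant and 236 in naive CD69- cells. H2-Ea was not among them: it had 214 in early tolerant and 277 in naive CD69- cells. The cytotoxic gene Gzmk was furthest apart of the 16, with 158 in early tolerant and 450.4 in naive CD69- cells. Of the genes that followed, 46 of 113 were not detected on either CD69- array (40.7%), against 9.98% of all detected genes. Of the higher genes that did not follow, 15 of 81 were not (18.5%). These shares are partly fixed in advance, since a higher gene entered by its detection on the early tolerant CD69+ array alone. Of the 113, 34 were not detected on the naive CD69+ array either (30.1%).

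**Figure D5:**
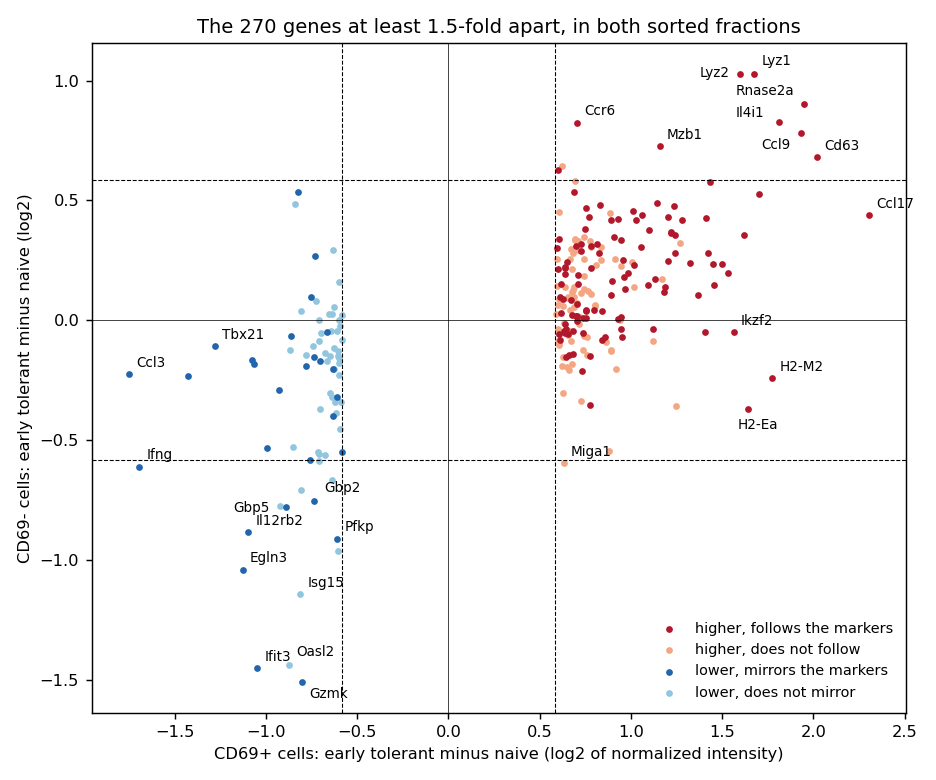
Each point is 1 of the 270 genes, by its log2 difference between early tolerant and naive cells in the CD69+ (horizontal) and CD69- (vertical) fractions; dashed lines mark 1.5-fold. Lyz1, Lyz2 and Rnase2a lie high in both fractions, H2-Ea and H2-M2 are high in CD69+ cells alone, and Ifit3, Oasl2 and Gzmk lie low in both.

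Other probes of the same genes gave a check within these arrays. For 61 of the 270 genes there were 83 other detected probes, of which 79 differed in the same direction and 33 by at least 1.5-fold. All 32 such probes of the genes that followed had the same direction, and 19 passed 1.5-fold. For the higher genes that did not follow, 26 of 28 had the same direction and 6 passed. For the lower genes that mirrored, 10 of 11 had the same direction and 5 passed. For the lower genes that did not mirror, 11 of 12 had the same direction and 3 passed. Further named genes with another detected probe within 1.5-fold included Evi2a, Ccr6, Cd86, Irgm1, Vegfa, Osm, St6galnac4 and Pdp2. The limit cut through a continuous range of values. Just inside it were Mcm7 (1.503-fold higher), Pdp2 (1.508-fold higher), Sap30 (1.501-fold lower) and Txndc9 (at least 1.373-fold lower). Just outside were Mdk (1.497-fold higher), Bmp1 (at least 1.394-fold higher), Utf1 (1.497-fold lower) and Ctdp1 (1.495-fold lower).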

How the data were processed

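RNA of sorted T cells was hybridised to 8 Illumina MouseRef-8 bead arrays. The scanner software was BeadStudio 3.1.3, per the submitters' processing notes. Per its file headers, the deposited non-normalized table gives each probe a mean bead intensity and a detection p-value. The series matrix, as deposited, holds normalized intensity on a linear scale. Its columns share 1 set of sorted values, from which quantile normalization was read, since no source used here states the method. The non-normalized table prints identifiers that are shifted against its values, so its detection p-values were joined to the matrix by the rank of each probe on the 8 arrays. All 25697 probes matched, 20106 (78.2%) under another identifier. Over pairs of probes for 1 gene, the median correlation was 0.921 with the matrix identifiers and 0.800 with the printed ones. A single symbol was listed for 23978 probes and none for 1719. For 23962 probes the symbol was taken from RefSeq through the listed gene identifier, whether or not it changed. Some of the listed markers were not analysed here.

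Each gene's value is that of the probe with the highest mean over the arrays. Folds are ratios of matrix values, and differences are on the log2 scale with no pseudocount. Lower bounds use the lowest detected matrix value of the dimmer array, 141 on the early tolerant and 149 on the naive CD69+ array. Named genes were the 12, 10, 8 and 8 largest folds of the 4 sets, up to 4 genes past the limit of each of 27 lists, those nearest the limit and a fixed set of markers; exceptions are stated. The genes, lists and tests were chosen with earlier results of these data known. The labels write both sorted fractions as CD3+ CD69+, so the fraction was taken from the titles. The ratio script was tested on simulated data. Alternatives were neqc in limma 3.58.1 (R 4.3.3, offset 16), median scaling, other detection filters, a signal minimum of 500, the mean of probes, a 2-fold limit and other pattern rules. Scripts ran in Python 3.11.15 with pandas 2.3.3. The number of arrays limits the precision.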

Additional observations from a re-analysis of the deposited data

Results flagged for a closer look

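Miga1, a gene of mitochondrial fusion, went in opposite directions in the fractions. In CD69+ cells it had 214.6 in early tolerant cells and 138.5, not detected, in naive cells, which is at least 1.44-fold higher, under the 1.5-fold limit that the measured signals passed. In CD69- cells it had 152.8 in early tolerant, where it was not detected, and 231 in naive cells. The difference between the fractions was not tested, and these signals lie near the detection limit.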

How the results depend on the processing

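No paired analysis was possible because each group has 1 array and the labels give no replicate numbers. With neqc, which subtracts background, the 194 higher and 76 lower genes became 369 and 252, and all 270 were among them. The sets then held 183 higher genes that followed and 186 that did not, and 55 lower genes that mirrored and 197 that did not; 46 higher and 35 lower ones were also apart in CD69- cells. With median scaling the counts were 102 higher and 650 lower, with 25 higher genes that did not follow, 71 that mirrored and 579 that did not, and 5 and 74 also apart in CD69- cells. The 77 genes that followed then were within 1.5 times the 113. With a signal of at least 500, the counts were 107 higher and 49 lower, the sets 56, 51, 18 and 31, and 10 lower genes were also lower in CD69- cells; fewer genes enter by construction. The 2-fold limit, applied to folds as measured without bounds, left 49 higher and 9 lower genes. The mean of probes left 50 higher genes that did not follow and 5 also higher in CD69- cells. With the order over the CD69+ arrays required to equal that of H2-Ea, 75 followed and 10 mirrored, and with a 2-fold pattern limit 15 mirrored. The class II list's median was 1.27 with a signal of at least 500, against 0.46, and that of the antigen-presenting cell chemokines 0.21 without a detection filter, against 1.05. The other 156 of 158 list values moved by less. Apart from the construction named, the cause was not tested. Of 75 named genes past the limit, 59 stayed at least 1.5-fold apart under all 3 settings that change a gene's signal (neqc, median scaling and the mean of probes), and none of these 225 values turned its direction. Filters cannot change a fold, but with detection required on both arrays 63 of the 75 remained, and with a signal of at least 500, 56.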
